A study of Saccharomyces cerevisiae with 36 samples.

Results

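The 10 genes described here belong to the sulfate assimilation and methionine pathway of budding yeast. They are MET3 (YJR010W), MET14 (YKL001C), MET16 (YPR167C), MET5 (YJR137C), MET10 (YFR030W), MET2 (YNL277W), STR3 (YGL184C), MET6 (YER091C), MUP1 (YGR055W) and SAM1 (YLR180W). They were taken from 5315 gene symbols on the array, which has 6388 yeast probes, and were chosen by name with earlier results of these arrays known. MET6 was chosen from its lower level in growing cells with a HIF1 deletion and several others from their lower level with a HAT1 deletion, so those differences are a description here and were not tested again. The gene MET17 (also called MET15) was left out because it is a selection marker of the strains.

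Yeast takes up sulfate, activates it with ATP, reduces it to sulfide and joins the sulfide to a carbon chain made from homoserine, which gives homocysteine and then methionine. Methionine is turned into S-adenosylmethionine, the methyl donor for DNA-, RNA- and protein-modifying enzymes, histone methyltransferases among them. The genes are known for their shared control by the activator Met4 with its partners Cbf1, Met28, Met31 and Met32, and for being shut down through the ubiquitin ligase subunit Met30 when methionine is plentiful.

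RNA levels came from 36 microarrays, 2 for each of 18 strain groups, on which each strain was hybridised in one dye beside a common wild-type reference RNA, labelled refpool, in the other. Their probes are 70-mers. All values are log2 ratios of strain over reference unless a sentence names a difference, which is then also on the log2 scale. Dyes were swapped between the 2 arrays of a strain, called replicates a and b. The study's methods give 4 profiles from 2 cultures of each mutant, and the labels do not tie the arrays to cultures, so p-values measure the spread between arrays, part of which may be technical. SEs and p-values rest on the spread between the 2 arrays of each strain. Where a comparison averages several strains, they leave out the spread between those strains.

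The growing deletion strains (7 strains, 14 arrays) lacked subunits of NuB4, a nuclear histone acetyltransferase complex made of the enzyme Hat1, the histone chaperone Hat2 and Hif1. They are the labels' hat1-del, hat2-del, hif1-del, hat1-del+hat2-del, hat1-del+hif1-del, hat2-del+hif1-del and hat1-del+hat2-del+hif1-del, written here hat1Δ and so on. They derive from BY4742, a MATα strain with intact MET15 (the labels give BY4742 and nuclear RNA for all 36 samples), and grew in synthetic complete medium with glucose until early mid-log phase. No growing wild type was hybridised as a sample, so these strains are set against each other or the reference.

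The starved strains (8 strains, 16 arrays) were kept in saturated rich medium, a state called G0. They are hat1-del-starved, hat2-del-starved, hif1-del-starved, hat1-del+hif1-del-starved, hat2-del+hif1-del-starved, hhf2-mut-K5Q-K12Q-starved, hhf2-mut-K5R-K12R-starved and the wild type wt-starved. In the strains labelled hhf2-mut, lysines 5 and 12 of histone H4 are glutamine (H4K5,12Q) or arginine (H4K5,12R). By the study's strain list all 8 are MATa, lack MET15, LYS2, BAR1 and the HHT1-HHF1 histone gene pair, and carry a recombinase-switchable HA-to-T7 tag on their remaining H3 gene together with a hormone-inducible Cre recombinase driven by the TDH3 promoter. The growing RITE strains (3 strains, 6 arrays; RITE is the tag-switch method) are wt-rite-H3-HA and wt-rite-H3-T7, which make only HA- or T7-tagged H3, and the untagged wt-rite. The list gives these 3 as MATa with bar1::HisG, a TRP1 deletion and the same Cre recombinase. They also have MET15 put back at the deleted HHT1-HHF1 locus.

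The deletions were seen in the data. On the 12 arrays of strains lacking it, HAT1 was at -3.33 to -2.23, against -1.21 to -0.71 on the other 12 G0 arrays and 0.03 to 0.21 on the other 12 growing arrays, and HAT2 and HIF1 were also lower in every strain without them than on any other array. STE2, the α-factor receptor of MATa cells, lay between 4.30 and 5.28 on the RITE arrays of both states, against -0.12 to 0.00 on the NuB4 arrays, which are MATα. BAR1 was higher in the growing RITE strains than in the NuB4 strains by 2.86 although the list gives bar1::HisG. It also lay between 2.02 and 3.31 on the 16 G0 arrays, whose strains are listed as lacking BAR1. Where its probe lies relative to the insertion is not given in the sources used here. Titles carry a number, 1 or 2, whose meaning the labels do not give: the single NuB4 mutants and the untagged RITE strain have 2 and all others 1. The probe of ATG33 divided the G0 strains, at 1.42 to 2.23 on the 8 arrays of hat1Δhif1Δ, hat2Δhif1Δ and both H4 mutants, against -0.13 to 0.10 on the other 8, and its part in comparisons of those 4 strains with the G0 wild type was not tested. The labels name nothing that sets these 8 arrays apart. The replicate b array of hif1Δ in G0 also stood apart, with HIF1 at -1.33 and MET17 at -3.44.

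Each of the 10 genes has 1 probe, printed as 2 spots, and all 10 were above local background in both channels on 36 of 36 arrays. MET6 was the brightest, at percentile 95.5 of the mean brightness of all probes, followed by SAM1 at percentile 91.7, and MET2 was the dimmest at percentile 16.5. SAM1 has a close copy, SAM2, and whether their probes tell the 2 transcripts apart was not tested. The plot of all arrays shows the 10 genes over the 3 sets of strains. SAM1, MUP1 and MET6 were far lower on every G0 array than on any growing array, and MET2 and STR3 were higher on every G0 array. Among the 5 sulfate assimilation genes MET16 was lower on every G0 array than on any growing array, while MET3, MET14, MET5 and MET10 overlapped. Overlap of arrays was not counted over all probes, here or below. Between the G0 wild type and the growing RITE strains 81.8% of all probes differed at an adjusted p under 0.05 in limma.

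**Figure D1:**
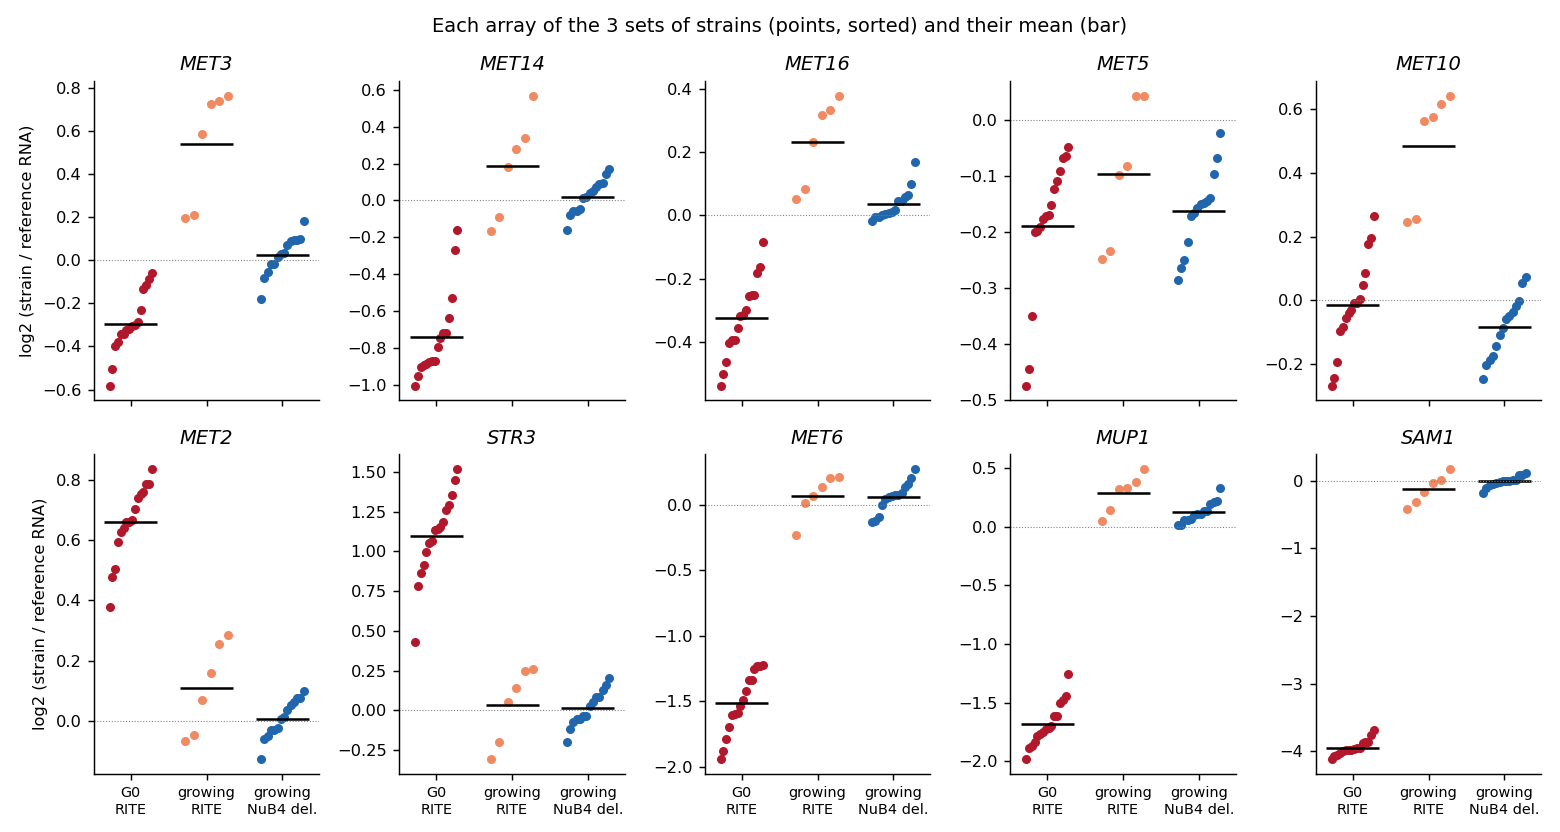
Each point is 1 array and each bar the mean of a set, with log2 of strain over reference on the y axis, whose range differs between the 10 panels, and the sets G0 RITE (16 arrays), growing RITE (6) and growing NuB4 deletion strains (14) along the x axis. SAM1 lies between -4.12 and -3.69 in G0 and between -0.43 and 0.17 on the growing arrays of both kinds, and STR3 lies between 0.43 and 1.52 in G0 and between -0.31 and 0.26 on the growing arrays.

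In the growing NuB4 strains 3 of the 5 sulfate assimilation genes, MET3, MET14 and MET10, were lower where HAT1 was deleted on top of another deletion, as was MET6. The 3 strains lacking HAT1 and HAT2, HIF1 or both were set against the 3 matched strains with HAT1 intact, 6 arrays each. MET10, the α subunit of sulfite reductase, had a lowest, median and highest value of -0.25, -0.18 and -0.11 without HAT1, against -0.06, -0.03 and 0.07 with it. MET3, the ATP sulfurylase that activates sulfate, had -0.18, -0.04 and 0.01 without HAT1, against 0.03, 0.09 and 0.18 with it. In both genes every array without HAT1 lay below every array with it.

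MET14, the kinase of the next step, had -0.16, -0.06 and 0.01 without HAT1, against 0.04, 0.09 and 0.17 with it, again without overlap. MET6, the methionine synthase that methylates homocysteine, had -0.13, -0.05 and 0.09 without HAT1, against 0.06, 0.08 and 0.16 with it. For MET6 the highest array without HAT1, replicate b of hat1Δhat2Δ, lay within the range of the arrays with it. The mean differences of these genes, without minus with HAT1, were -0.17 for MET10, -0.16 for MET14, -0.15 for MET3 and -0.13 for MET6, and each was below 0 in 6 of 6 pairs of arrays with the same background and dye order. These 4 genes are the members counted as lower at an adjusted p under 0.05, where 2.38% of all probes were lower, and since the members were selected on this contrast nothing is read from that count.

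The nearest member outside that group was MET5, the β subunit of sulfite reductase, with a difference of -0.10 that was below 0 in 6 of 6 pairs. MET2, the homoserine acetyltransferase, differed by -0.09 in 6 of 6 pairs, STR3, a cystathionine β-lyase, by -0.13 in 5 of 6 and MET16, the reductase of activated sulfate, by -0.07 in 5 of 6. The methionine permease gene MUP1 (0.02, below 0 in 1 of 6 pairs) and SAM1, an S-adenosylmethionine synthetase gene (0.01, 2 of 6), did not share the direction. Only the background lacking HAT2 and HIF1 compares strains with the same title number, and there the differences were -0.18 for MET10, -0.17 for MET14, -0.16 for MET3 and -0.18 for MET6. Single hat1Δ has no growing wild type beside it and does not enter: its MET6 values were the highest of the 14 NuB4 arrays, at 0.28 and 0.20.

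Deletion of HIF1 on matched backgrounds went with lower MET6, the member that was chosen on this contrast. MET6 had a lowest, median and highest value of -0.13, -0.05 and 0.07 on the 6 arrays without HIF1, against 0.05, 0.13 and 0.28 on the 6 with it, so that the ranges overlapped at their edges. Its mean difference was -0.18, from -0.30 on the hat1Δ background through -0.18 on hat1Δhat2Δ, where both strains have the same title number, to -0.05 on hat2Δ. MET6 alone was counted as lower among the members, where 0.125% of probes were. Since MET6 was selected on this contrast, nothing is read from that count.

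MET10 (-0.11) and STR3 (-0.15) followed, both below 0 in 6 of 6 pairs, and MET16 was the smallest of the 10 at -0.02. Of the 31 other genes of the pathway, SAM2 and the glutathione synthesis gene GSH1 were called lower with the HAT1 deletion in limma's test, by 0.23 and 0.13 on the log2 scale. Of all probes 2.38% were lower there. An unadjusted p under 0.05 was found for 8 of the 31 and for 24.9% of all probes. None of the 31 was called with the HIF1 deletion, where 0.329% of all probes were. There 4 of the 31 had an unadjusted p under 0.05, as had 15.2% of all probes.

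The HAT2 deletion was not used to choose the genes, but it is measured on the same 14 arrays and is not independent of that choice. MET14 had a lowest, median and highest value of -0.16, -0.02 and 0.05 without HAT2, against -0.06, 0.05 and 0.15 with it, a difference of -0.07 ± 0.03 (SE, n = 6 arrays each) that was below 0 in 6 of 6 pairs. MET6 had -0.13, 0.05 and 0.09 without HAT2, against -0.12, 0.11 and 0.28 with it, a difference of -0.09 ± 0.03. Both ranges overlapped.

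By limma 0 of the 10 members were called for HAT2, at a background of 0.0157% of probes, which is HAT2 alone. An unadjusted p under 0.05 was found for 3 members and for 294 of the 6388 probes, and the members' differences lay between -0.09 and 0.02.

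**Figure D2:**
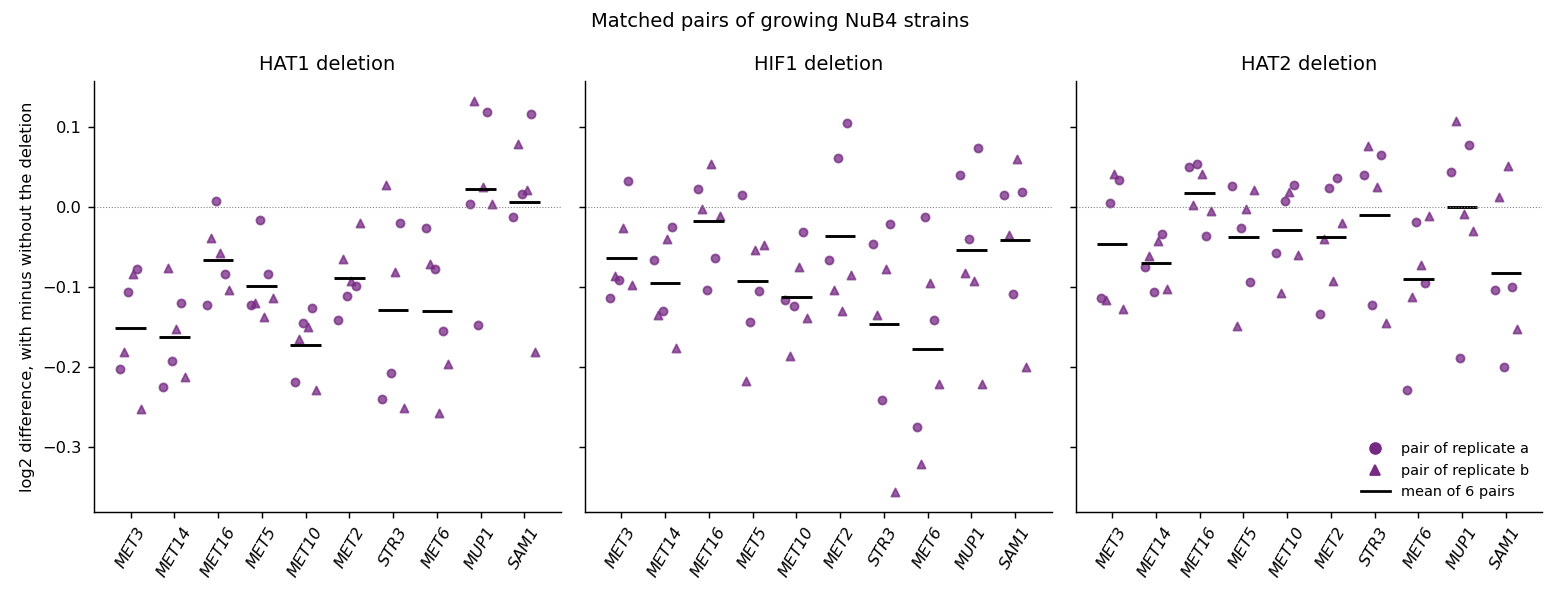
Points are log2 differences within matched pairs of growing NuB4 strains, with minus without the deletion named above each panel, for replicate a (circles) and b (triangles), and bars are means of 6 pairs. The HAT1 and HIF1 panels show the contrasts the genes were chosen on, with MET10 at -0.17 for HAT1 and MET6 at -0.18 for HIF1, and in the HAT2 panel MET14 (-0.07) and MET6 (-0.09) are below 0 in every pair.

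Tagging of histone H3 went with higher expression of 7 of the 10 genes, the 5 for sulfate assimilation together with MET2 and STR3, and with lower SAM1. The question of this comparison is whether a tag on H3 alters transcription. MET3 stood at 0.72 and 0.76 in the H3-HA strain and at 0.59 and 0.74 in the H3-T7 strain, against 0.19 and 0.21 in the untagged strain. MET14 stood at 0.57 and 0.28 with HA and at 0.18 and 0.34 with T7, against -0.17 and -0.09 without a tag. All 4 tagged arrays lay above both untagged ones in each gene. This was not counted over all probes, of which limma called 44.7% with HA and 38.1% with T7.

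The differences from the untagged strain were 0.54 ± 0.05 (SE) for MET3 with HA (limma, adjusted p = 2.74e-06) and 0.46 ± 0.05 with T7 (adjusted p = 1.52e-05), with n = 2 arrays in each strain. For MET14 they were 0.55 ± 0.08 with HA (adjusted p = 0.000202) and 0.39 ± 0.08 with T7 (adjusted p = 0.00309). MET16, which reduces activated sulfate to sulfite, differed less, with 0.38 and 0.33 in the H3-HA strain and 0.23 and 0.32 in the H3-T7 strain, against 0.05 and 0.08 in the untagged strain. Its differences were 0.29 ± 0.04 for HA and 0.21 ± 0.04 for T7. SEs and p-values of the tag comparisons draw largely on the spread of the 14 growing NuB4 arrays, which were in the same fit.

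Both sulfite reductase subunits rose. MET10 had 0.64 and 0.58 with HA and 0.62 and 0.56 with T7, against 0.25 and 0.24 without a tag, which gave 0.36 ± 0.04 for HA and 0.34 ± 0.04 for T7. MET5 had 0.04 and 0.04 with HA and -0.08 and -0.10 with T7, against -0.25 and -0.23 without a tag, which gave 0.28 ± 0.05 for HA and 0.15 ± 0.05 for T7. The 2 arrays of each strain agreed closely in both genes and none overlapped with the untagged strain.

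Among the genes of homocysteine and methionine synthesis, STR3 had 0.14 and 0.25 with HA and 0.05 and 0.26 with T7. It had -0.31 and -0.20 in the untagged strain, a difference of 0.45 ± 0.07 for HA and 0.41 ± 0.07 for T7. MET2 had 0.25 and 0.28 with HA and 0.07 and 0.16 with T7, against -0.07 and -0.05 without a tag, a difference of 0.33 ± 0.05 for HA and 0.17 ± 0.05 for T7. SAM1 had the opposite direction, with -0.04 and -0.43 with HA and -0.17 and -0.32 with T7, against 0.17 and 0.01 without a tag, differences of -0.32 ± 0.07 for HA (limma, adjusted p = 0.00347) and -0.33 ± 0.07 for T7 (adjusted p = 0.00357). MET6 was uneven, at 0.21 and -0.23 with HA and 0.02 and 0.07 with T7, against 0.21 and 0.14 without a tag, and neither it nor MUP1 was called.

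In each tag comparison 7 members were therefore higher and 1 lower. Over all probes 25.3% were higher and 19.3% lower with HA, and 22.7% were higher and 15.4% lower with T7, and the median difference of the 10 was 0.31 for HA and 0.19 for T7 against -0.01 and 0.00 over all probes. Both comparisons share the 2 untagged arrays, which also carry another title number than the tagged strains, so that tag and number cannot be told apart. Between the H3-HA and the H3-T7 strain 0 of the 10 genes were called by limma, where 3.29% of probes were. An unadjusted p under 0.05 was found for 2 of the 10 and for 18.7% of probes, and the largest difference was 0.17 ± 0.08 for MET14. Leaving out the untagged replicate b, or either T7 array, lowered the count called with T7 to 5 of 10, with MET2 and MET5 lost each time. SAM1 was also lost without the untagged replicate b (-0.28) or the T7 replicate a (-0.27), and MET14 (0.26) and MET16 (0.16) without the T7 replicate b, where MET6 was called lower at -0.28. Leaving out 1 array at a time gave 7 to 9 called with HA. MET6 was called lower with HA at -0.40 without the HA replicate a and, with arrays centred on their median in place of loess, at -0.44 for HA and -0.38 for T7. SAM1 lost its call with HA without the HA replicate b (-0.21) or the untagged replicate b (-0.27).

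**Figure D3:**
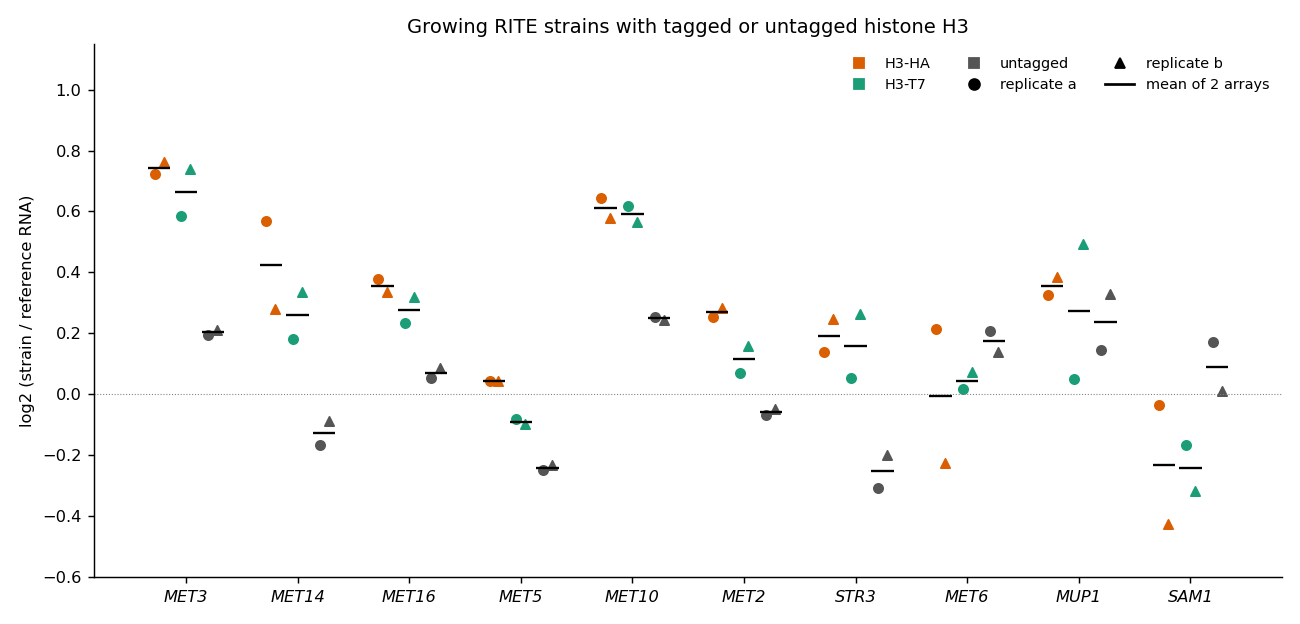
Points are the 2 arrays (circle a, triangle b) of each growing RITE strain and bars their means, as log2 of strain over reference for each gene, with H3-HA and H3-T7 left of the untagged strain. From MET3 to STR3 the tagged arrays lie above the untagged ones, whereas SAM1 lies below 0 on all 4 tagged arrays and above 0 on both untagged ones.

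Other genes of the pathway moved in both directions with the tags. Of the 31, 10 were higher and 6 lower with HA, where 25.3% of all probes were higher and 19.3% lower. With T7 7 were higher and 10 lower, where 22.7% of all probes were higher and 15.4% lower. Those with the largest changes among the higher genes were YCT1, a cysteine transporter (0.40 for HA and 0.50 for T7), and MET28, a cofactor of Met4 (0.40 and 0.42), and for T7 also STR2 (0.37), which works in the exchange between cysteine and homocysteine. Of the 6 methyl cycle genes 3 were lower with HA and 5 with T7, and 0 were higher: SAM2 by 0.39 for HA and 0.46 for T7 on the log2 scale, SAH1, the hydrolase of S-adenosylhomocysteine, by 0.35 for HA, SHM2, a serine hydroxymethyltransferase, by 0.36 for HA, and MET13, which makes methyltetrahydrofolate, by 0.38 for T7. MET8, which makes the sirohaem cofactor of sulfite reductase, fell by 0.37 on the log2 scale with HA and the S-adenosylmethionine permease gene SAM3 by 0.36 with T7.

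Other transcripts moved with the tags as well, and their part in the result was not tested. MET17 was higher by 0.73 with HA and 0.41 with T7. The stress genes HSP12 and HSP26, named after their values were seen, were higher by 1.08 and 2.32 with HA and by 1.43 and 2.06 with T7.

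Starved cells were compared with growing cells through the G0 wild type (2 arrays) and the 3 growing RITE strains (6 arrays). The aim was to place the genes in the starved state, in which the study's screen measured turnover. Here SAM1, MUP1 and MET6 fell most. SAM1 stood at -4.06 and -3.69 in the G0 wild type, against a lowest, median and highest value of -0.43, -0.10 and 0.17 in the growing RITE strains, a difference of -3.75 ± 0.09 (SE; limma, adjusted p = 5.56e-17), or a level of 0.0743 times that of growing cells. MUP1 stood at -1.87 and -1.50 in G0, against 0.05, 0.33 and 0.49 in growing cells, a difference of -1.97 ± 0.09.

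MET6 stood at -1.49 and -1.34 in the G0 wild type, against -0.23, 0.11 and 0.21 in growing RITE strains, a difference of -1.48 ± 0.14. These 3 genes act in uptake of methionine, its synthesis from homocysteine and its use for S-adenosylmethionine, and their G0 arrays lay far below all growing ones. Among the sulfate genes, MET3 was at -0.34 and -0.40 in G0, against 0.19, 0.66 and 0.76 in growing cells, and MET14 at -0.72 and -0.75, against -0.17, 0.23 and 0.57. Their differences were -0.91 ± 0.05 and -0.92 ± 0.08.

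MET10 and MET16 fell less, by 0.50 and 0.46 on the log2 scale, and MET5 did not pass the test (-0.05 ± 0.06, adjusted p = 0.476). STR3 and MET2 rose. STR3 stood at 1.29 and 1.45 in the G0 wild type, against -0.31, 0.10 and 0.26 in growing RITE strains, a difference of 1.34 ± 0.14 or 2.53-fold. MET2 stood at 0.70 and 0.66 in G0, against -0.07, 0.11 and 0.28, a difference of 0.57 ± 0.05 or 1.49-fold.

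In all, 2 members were higher and 7 lower in the starved wild type, where 41.8% of all probes were higher and 40% lower. The median of the 10 was -0.70 against 0.01 over all probes. In RNA from a whole culture, a lower level in every cell and fewer cells that express a gene cannot be told apart. Ratios were centred within each array, so levels are relative to the other probes and a change in total RNA per cell would not be seen. The starved and the growing RITE strains differ in state, medium, markers, H3 tag and RNA isolation protocol together, and these cannot be told apart. SEs and p-values of this comparison leave out the spread between the growing RITE strains. MET17, deleted in the starved strains and present in the growing ones, differed by -4.83. With the untagged strain alone as the growing side, an alternative chosen after seeing the data, the same 9 members were called in the same directions, and MET3 and MET14 then differed by -0.57 and -0.61.

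**Figure D4:**
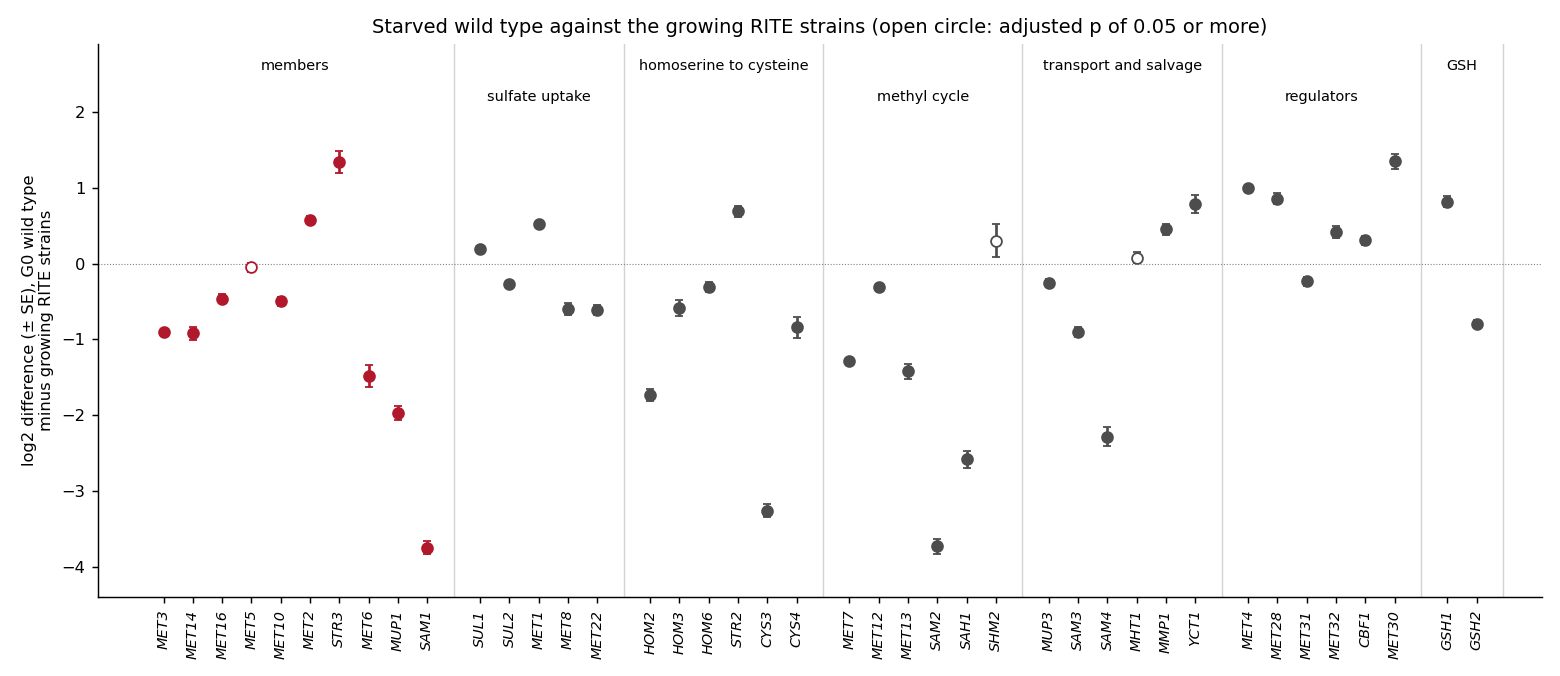
Log2 differences (y axis, error bars SE) between the G0 wild type (2 arrays) and the growing RITE strains (6 arrays) are shown for the 10 genes in red and 31 other pathway genes in grey, grouped by role. SAM1 and SAM2 are near -3.7, most regulators lie above 0, and STR3 (1.34) and MET30 (1.35) are the highest points.

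Of the 31 other genes of the pathway 11 were higher and 18 lower in the G0 wild type, where 41.8% of all probes were higher and 40% lower. The counts were 2 higher and 3 lower of 5 for sulfate uptake and assimilation, 2 and 3 of 6 for transport and salvage, and 1 and 1 of 2 for glutathione. In the methyl cycle list 5 of 6 were lower and 0 higher, led by SAM2 (-4.09 and -3.71 in G0, a difference of -3.73), SAH1 (-2.58) and MET13 (-1.42). In the list from homoserine to cysteine 5 of 6 were lower, among them CYS3, the cystathionine γ-lyase (-3.50 and -3.10 in G0, a difference of -3.26), and HOM2 of the aspartate route (-1.73). SAM4, a homocysteine methyltransferase gene, fell by 2.28 on the log2 scale.

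Of the 6 regulators 5 were higher and MET31 was lower. Named after their values were seen, MET30 stood at 1.12 and 1.74 in the G0 wild type (a difference of 1.35 from the growing RITE strains) and MET4 at 0.89 and 0.86 (a difference of 1.00).

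Among the starved strains the mutants were set against the G0 wild type to ask whether NuB4 or the H4 residues affect transcription in G0. None of the 5 deletion strains had a member called by limma. For hat1Δ, with the same background of 0.0157% of probes called as hat2Δ, the members' differences lay between -0.15 and 0.11, 6 of 10 were above 0, and 0 had an unadjusted p under 0.05. An unadjusted p under 0.05 was found for 4.13% of probes. MET14 was at -0.87 and -0.90 in hat1Δ, against -0.72 and -0.75 in the wild type, a difference of -0.15 ± 0.12. MET10 was at 0.19 and -0.01 in hat1Δ, against 0.00 and -0.03 in the wild type, a difference of 0.11 ± 0.10, and MET3 differed by 0.09 ± 0.08 and MET6 by 0.00 ± 0.22. None of these 4 differences passed the test. Differences of the size measured in growing cells would lie within 2 standard errors of 0 here and would not be detectable with these arrays.

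In hat2Δ the differences lay between -0.39 and 0.20, again with 0 members at an unadjusted p under 0.05, against 7.33% of probes (0.0157% called). In hif1Δ, at 0.329% of probes called, MET6 was at -1.94 and -1.42, against -1.49 and -1.34 in the wild type, a difference of -0.27 ± 0.22 that did not pass the test. STR3 had the largest difference in hif1Δ, with 1.14 and 0.43 against 1.29 and 1.45 in the wild type (-0.59 ± 0.23, limma, adjusted p = 0.39), and 2 of the 10 members had an unadjusted p under 0.05, against 11.1% of probes. The value of 0.43 belongs to the array that stood apart: without replicate a, which leaves that array alone, STR3 was called at -0.96.

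The double mutants gave the same count of 0. In hat1Δhif1Δ, at 0.0626% of probes called, the members' differences from the wild type lay between -0.36 and 0.16, and in hat2Δhif1Δ, at 0.157%, between -0.28 and 0.15, with 0 members at an unadjusted p under 0.05 in either, against 10.8% and 11.3% of probes. Set against each other, hat1Δhif1Δ and hat2Δhif1Δ had differences between -0.19 and 0.22, with 0 members called by limma, where 0.0313% of probes were, and 1 at an unadjusted p under 0.05, against 12.5% of probes.

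Of the histone H4 mutants, H4K5,12R had higher MET14 than the G0 wild type, a call that was lost when any 1 of the 4 arrays was left out. It stood at -0.16 and -0.27 in H4K5,12R, against -0.72 and -0.75 in the G0 wild type, and the other 14 G0 arrays lay at or below -0.53, under both H4K5,12R arrays. The difference from the wild type was 0.52 ± 0.12 (SE, n = 2 arrays each; limma, adjusted p = 0.0431), a fold of 1.43, and MET14 was the only member called, where 1.61% of probes were higher. Leaving out either array of either strain ended the call (adjusted p in limma from 0.12 to 0.23, difference from 0.43 to 0.61), as did print-tip loess (0.48, adjusted p = 0.0507), centring on the median (0.48, adjusted p = 0.0584) and a fit with no replicate block (adjusted p = 0.0906).

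Against both double mutants, whose ATG33 probe is high as in H4K5,12R, MET14 differed by 0.70 (limma, adjusted p = 0.00472), in a comparison added after seeing the data. Of the other members, MET10 was nearest, at 0.27 and 0.05 in H4K5,12R against 0.00 and -0.03 in the wild type (0.17 ± 0.10). Of the 31 other pathway genes 1 was called higher and 1 lower in H4K5,12R by limma, where 3.24% of all probes were called. HOM3, the aspartate kinase, was lower at -1.41 and -1.89, against -0.99 and -0.71 in the wild type. The low-affinity methionine permease gene MUP3 was higher at 0.04 and 0.41, against -0.23 and -0.01. Whether these calls last with an array left out was not tested.

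In H4K5,12Q all 10 members lay below the wild type, by a median of -0.19 against 0.01 over all probes, yet 0 were called by limma, where 0.595% of probes were, and 1 had an unadjusted p under 0.05, against 16.8% of probes. The nearest was MET2, at 0.38 and 0.48 in H4K5,12Q against 0.70 and 0.66 in the wild type, the lowest MET2 strain mean of the 8 G0 strains (-0.26 ± 0.08, limma, adjusted p = 0.168). Between the H4 mutants MET14 stood at -0.87 and -0.72 in H4K5,12Q, against -0.16 and -0.27 in H4K5,12R, a difference of -0.58 ± 0.12. The difference was -0.32 ± 0.10 for MET10 and -0.26 ± 0.08 for MET2. These 3 members had an unadjusted p under 0.05 and 0 were called by limma, nor was any other probe (0% called, 267 probes at an unadjusted p under 0.05).

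**Figure D5:**
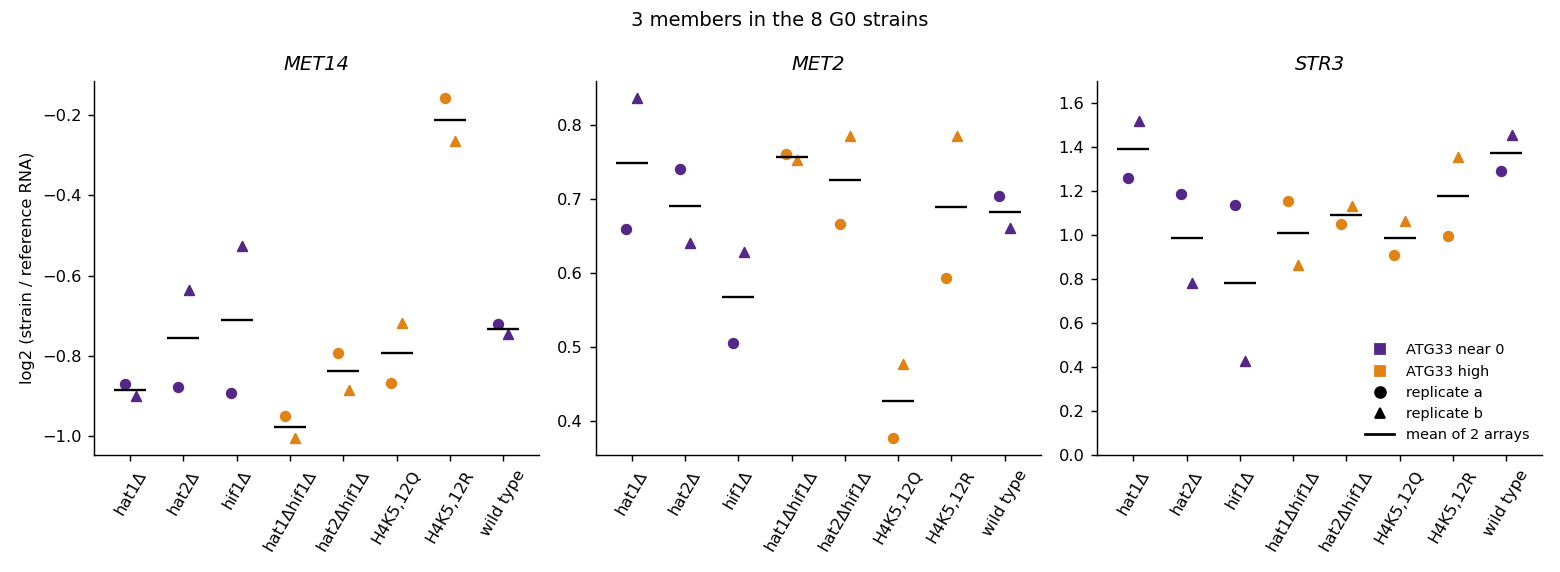
MET14, MET2 and STR3 are shown on both arrays (circle a, triangle b) of the 8 G0 strains, as log2 of strain over reference, with the wild type at the right and bars for means of 2 arrays. Orange marks the 4 strains whose ATG33 probe is high. Both H4K5,12R arrays lie above all others for MET14, both H4K5,12Q arrays are the lowest for MET2, and the hif1Δ replicate b array is the lowest for STR3.

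The growing RITE strains also differed from the growing NuB4 strains, chiefly in MET3 and MET10. MET3 had a lowest, median and highest value of 0.19, 0.66 and 0.76 on the 6 RITE arrays, against -0.18, 0.03 and 0.18 on the 14 NuB4 arrays, a difference of 0.51 ± 0.03. MET10 had 0.24, 0.57 and 0.64, against -0.25, -0.07 and 0.07, a difference of 0.57 ± 0.04. Both SEs leave out the spread between strains. In the RITE strains the MET3 means were 0.20 (untagged), 0.74 (H3-HA) and 0.66 (H3-T7). Neither gene overlapped between the 2 sets. This was not counted over all probes, of which limma called 62.3%. The NuB4 arrays are those the members were chosen on, and the part of that choice in these differences was not tested.

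MET16, MET14, MUP1 and MET2 were also called, at 0.20, 0.16, 0.16 and 0.10, with overlapping ranges, so that 6 members were higher and 0 lower, where 29.9% of probes were higher and 32.3% lower. Mating type, markers, tags, the Cre recombinase, the HHT1-HHF1 deletion and the NuB4 deletions themselves differ between the sets and cannot be told apart. With the untagged RITE strain alone, an alternative chosen after seeing the data, MET10 (0.34) and MET3 (0.18) were called and the other 8 were not, and without the T7 replicate b 3 members were called.

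Of the 31 other pathway genes 8 were higher and 11 lower in the growing RITE strains, where 29.9% of all probes were higher and 32.3% lower. The largest differences were those of SAM3 (-0.58), STR2 (0.48), MET8 (-0.47), the methyltransferase gene MHT1 (-0.38), SAM4 (-0.33) and the S-methylmethionine permease gene MMP1 (-0.27).

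As a description, over the 8 G0 strain means, which share the reference RNA, the median Pearson r of the 45 pairs of members was 0.44, and over the 16 G0 arrays it was 0.17. MET14 had a median r of -0.10 with the others over the strain means. Among all other genes with 1 symbol, those whose 18 strain means, centred in each set, were most like the mean of the members, in strains that include those the genes were chosen on, were RNP1 (Pearson r of 0.82), NCP1 (0.81), RFX1 (0.80), PSD2 (0.79) and TTI2 (0.79). The nearest gene of the pathway lists was MET32, at 0.71 and rank 37.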

How the data were processed

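Scanner files of 36 dual-channel arrays were used. The authors deposited the intensity of each spot and its local background, not corrected or normalized, and the authors deposited a table of log2 ratios normalized within arrays (the submitters' processing notes name limma 2.12.0), used here as an alternative. Columns of the authors' own comparisons (log2 changes and p-values) were not used. From signal means and background medians, normexp background correction used an offset of 50, and a loess curve per array, to which control spots gave no weight, removed the dye trend. Both spots of each probe entered as their mean, and ratios were turned to strain over reference. Linear models were fitted in limma 3.58.1 (R 4.3.3) with a term for each strain and, per set, for dye orientation, which is the replicate letter: on 14 arrays (growing NuB4), 16 (G0), 20 (tags, with the NuB4 arrays) or 36 (between sets). Adjustment followed Benjamini-Hochberg across all 6388 probes, and an adjusted p under 0.05 was called. The scripts were tested on simulated data. A spot counted as above background when it exceeded it by 2 SDs.

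The members and gene lists were chosen with earlier results of these data known. All 10 members are named, other pathway genes up to the 6 largest changes called per comparison, and like genes by the 5 highest correlations. Gene symbols come from the platform annotation, and 5255 of 5315 were found in the reference table. The same letter pairs arrays by dye order: deviations from strain means correlated at 0.36 to 0.77 between growing NuB4 arrays of a letter, 0.15 to 0.53 in growing RITE and -0.22 to 0.76 in G0. Precision is limited by the number of arrays, 2 per strain. Alternatives were print-tip loess, centring on the median, raw signals with no background step, the authors' ratios, leaving out dim probes, no replicate block, all arrays in 1 fit, and leaving out each array.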

Additional observations from a re-analysis of the deposited data

How the results depend on the processing

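MET2 and MET16 fall below the brightness limit and were not tested under that alternative, where 7 members were called for the G0 wild type against growing RITE strains and 6 for HA. Under all other alternatives these counts were 9 for the starved comparison and 7 to 9 for HA. With median centring the members called were 2 for the HAT1 deletion, 3 for HIF1 and 0 for H4K5,12R, and MET6 was called lower in growing RITE than in NuB4 strains, at -0.24, as was SAM1. Print-tip loess gave 0 for H4K5,12R. With no replicate block the counts were 1 for HAT1, 0 for HIF1 and 0 for H4K5,12R, and no other count of members moved by over 1.5 times. With all 36 arrays in 1 fit they were 0 for HAT1, 0 for HIF1, 4 for T7, 1 for H4K5,12Q (MET2) and 1 between the H4 mutants (MET14). With the untagged strain alone, growing RITE against NuB4 strains gave 2, with MET14 at -0.15 and MET2 at -0.064, neither called. Leaving out 1 array gave 1 to 5 members for HAT1, 0 to 2 for HIF1, 0 to 0 for H4K5,12R, 0 to 1 for hif1Δ in G0, 5 to 6 for T7 and 3 to 7 for RITE against NuB4 strains. Of the 37 called member changes, refits under the other alternatives kept 232, ended 33 and turned 2, and refits leaving out an array kept 272 and ended 48. Member changes that were not called became called in 15 refits. The counts for HAT1 and HIF1 are of contrasts the members were chosen on, and nothing is read from them. The causes of these shifts were not tested.

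Counts over all probes moved more. For HAT1 300 probes were called, against 2 in 1 fit and 14 to 843 leaving out an array (14 without hat2Δ replicate a), and for HIF1 21, against 3 in 1 fit, 953 with median centring and 4 to 115 leaving out an array. For H4K5,12R 207 were called, against 50 with no replicate block, 1337 in 1 fit and 9 to 45 leaving out an array, and for H4K5,12Q 38, against 5, 857 and 1 to 19. The other G0 comparisons had 0 to 21, against 28 to 459 in 1 fit. For HA 2853 were called, against 1247 in 1 fit, for T7 2432 against 891, and for RITE against NuB4 strains 3978, against 868 with the untagged strain alone. Precision rests on 2 arrays per strain.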
